A study of Mus musculus with 2 samples.

Results

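Linker histone H1 genes were followed across the immune cells of the colitic colon of WT and Ring1AKO mice. The members were the genes whose symbol is H1f followed only by digits, which gave 11 of the 32228 genes counted: H1f0 to H1f10. The family was selected on measured values of these libraries, because H1f4 was lower in every gated class of the Ring1AKO library. Its values in that contrast are therefore given as a description, and the direction in H1f4 is not a finding. With 1 library a group no test was possible, and no p-value is given.

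The samples were CD45+ cells negative for 7-AAD, a dye that enters dead cells, from the lamina propria of the colon, the connective layer under the epithelium. One library came from pooled WT mice and 1 from pooled Ring1AKO mice, all on the C57BL/6 strain, 8 to 10 weeks old by the labels, and all given dextran sulphate sodium (DSS), which injures the colon epithelium and causes colitis. Ring1AKO mice lack Ring1A, an E3 ligase of polycomb repressive complex 1 that places ubiquitin on histone H2A. The knockout was not limited to 1 cell type, so the tissue around the sorted cells carried it too. Because mice were pooled and each condition was 1 library made from its own preparation, the genotype, the library and the severity of colitis cannot be told apart in any difference below.

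Linker histones bind the nucleosome where DNA enters and leaves it, and with the stretch of DNA between nucleosomes they help fold chromatin. In the mouse, H1f1 to H1f5 are the replication-dependent variants, transcribed mainly in S phase, when new chromatin needs histones. Their messages typically end in a stem-loop in place of a poly(A) tail. H1f0 and H1f10 are replacement variants, made outside S phase from polyadenylated messages, and H1f0 is known to accumulate in cells that have stopped dividing. H1f6, H1f7 and H1f9 are testis variants and H1f8 is the oocyte variant.

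Sequence features of these genes could be read from the reference, and they did not fully separate the classes. Of the 11 genes, 10 had a RefSeq promoter entry (GRCm38.p6), and H1f9 had none. Stretches of 130 bases ending at the base before the start site are shown for H1f4, for H1f5 and H1f2, which lay at opposite ends of the replication-dependent ratios below, and for H1f1, the replication-dependent member without the H1 box. Capitals mark matches to AAACACA (the H1 box), CCAAT and TATAAA, each searched on both strands. Only matches on the strand shown are in capitals, and in these 4 stretches no capitals overlap.
H1f4, chr13:23622559-23622688, minus strand: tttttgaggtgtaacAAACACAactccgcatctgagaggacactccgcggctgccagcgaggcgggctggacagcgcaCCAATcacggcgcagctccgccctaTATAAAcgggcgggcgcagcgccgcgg
H1f5, chr13:21780626-21780755, minus strand: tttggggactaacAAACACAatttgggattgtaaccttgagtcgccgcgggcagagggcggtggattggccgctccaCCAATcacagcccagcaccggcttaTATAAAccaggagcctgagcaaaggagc
H1f2, chr13:23738677-23738806, plus strand: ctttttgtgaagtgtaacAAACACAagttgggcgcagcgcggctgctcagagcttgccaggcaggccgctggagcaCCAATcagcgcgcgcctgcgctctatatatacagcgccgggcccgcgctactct
H1f1, chr13:23763538-23763667, plus strand: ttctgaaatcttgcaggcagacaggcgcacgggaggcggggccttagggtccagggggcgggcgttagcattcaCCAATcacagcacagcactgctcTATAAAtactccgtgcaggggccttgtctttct

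The H1 box began 115 bases before the start of H1f4, 117 before H1f5, 112 before H1f2, 122 before H1f3 and 114 before the testis gene H1f6. It was absent from the 300-base windows of H1f0, H1f1, H1f7, H1f8 and H1f10. Of all 32851 promoters, 7.18% held AAACACA, 37.4% held CCAAT and 13.6% held TATAAA. H1f3, H1f4 and H1f5 had all 3 motifs and the replacement genes H1f0 and H1f10 had none of them. H1f2 shared the H1 box and CCAAT with H1f4, so the box did not set apart the genes with the lowest ratios. TATAAA was in H1f1, H1f3, H1f4 and H1f5 and not in H1f2. Its relation to the ratios was not tested.

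The GENCODE vM21 models gave the other end of the message. H1f4 (ENSMUSG00000051627) lies at chr13:23620629-23622558 on the minus strand of GRCm38, as 1 exon of 1930 bases. A histone stem-loop was searched on the transcript strand as 6 bases beginning GG, a loop of 4 beginning TT, and 6 bases complementary to the first. The annotated transcript of H1f4 held it, with 1153 annotated bases after it and no AATAAA polyadenylation signal.
H1f4 stem-loop: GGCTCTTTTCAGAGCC
H1f6 stem-loop: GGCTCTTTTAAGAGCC
The same 16 bases as in H1f4 were in H1f2 and H1f3, and H1f6 had a loop that differed. The other 7 genes had none within their annotated transcript, and the models of H1f1 and H1f5, of 741 and 743 bases, were short. AATAAA was absent from H1f5 too, and present in H1f1, H1f2 (beginning 26 bases from its end) and H1f3. Over all 21901 genes searched, 0.575% held such a stem-loop and 81.5% held AATAAA, whereas of 58 core histone genes 36 held the stem-loop and 15 held AATAAA. The libraries were primed on poly(A), so the counts below cover only polyadenylated or internally primed messages of these genes. How far that fraction follows the whole message was not tested. H1f4 also overlaps Hist1h2be (H2bc6) and Gm11398 on the same strand, and 155 of its 1881 windows of 50 bases occur in another H1 gene, so reads from those stretches could not be assigned to it with certainty.

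The deposited matrices held 74414511 UMIs (unique molecular identifiers, each standing for 1 captured molecule) in the WT and 81862096 in the Ring1AKO library. Barcodes with at least 1000 UMIs, at least 500 genes and under 5% mitochondrial UMIs numbered 6005 and 7918, with medians of 6354 and 5035 UMIs, and 11 barcodes were kept in both libraries. A cell was gated into 1 of 8 classes when it held at least 3 of the class's 8 markers and more than of any other class, which placed 92.8% and 93.6% of the cells. B (1239 WT and 3766 Ring1AKO cells), T (1701 and 1801), plasma (801 and 755) and monocyte (1215 and 525) gates were large. Neutrophil (222 and 262), ILC2 (200 and 126), dendritic (102 and 125) and NK (92 and 49) gates were small. Each class had the highest summed level of its own 8 markers, but the gate used these markers, so this does not check the classes. The ILC2 gate also held mast cell markers, at 3479 CPM (UMIs of a gene or list per 1000000 UMIs of the class) in WT and 26509 CPM in Ring1AKO cells, and 8 of 200 and 25 of 126 of its cells held 2 or more of 5 mast markers. Ring1 itself had 13.3 CPM in WT and 11.6 CPM in Ring1AKO gated cells, and its paralog Rnf2 22.1 and 28.4 CPM. Red-cell markers, of another cell type, summed to 20.3 and 258 CPM in B cells, 531 and 1368 CPM in T cells and 11.6 and 1382 CPM in monocytes, and their part in the results was not tested. A 3′ count does not test a deletion elsewhere in the gene, so the Ring1 level checks nothing about the labels.

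H1f4 was among the most abundant H1 messages of the WT library and was lower in the Ring1AKO library in all 8 classes. Summed over the class, B cells had 221 CPM in WT (95% Poisson interval 210 to 232, 1534 UMIs) and 38.0 CPM in Ring1AKO (35.4 to 40.8, 763 UMIs). In plasma cells the levels were 155 and 23.9 CPM. T cells had 185 and 39.9 CPM. The 3 large lymphoid classes thus sat above 150 CPM in WT and below 40 CPM in Ring1AKO. Among the myeloid classes, monocytes had 66.2 and 15.4 CPM. Dendritic cells had 95.2 CPM from 186 UMIs and 13.2 CPM from 27 UMIs. Neutrophils had 20.6 CPM from 24 UMIs and 6.61 CPM from 10 UMIs. Neutrophils were therefore the lowest class in both libraries. The innate lymphoid classes rested on few UMIs, with 179 CPM (102 UMIs) and 66.5 CPM (20 UMIs) in NK cells, and 90.9 CPM (97 UMIs) and 41.9 CPM (31 UMIs) in the ILC2 gate. The intervals of the 2 libraries did not overlap in any class. H1f4 was chosen for this direction, and how many of all genes do the same was not counted.

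**Figure D1:**
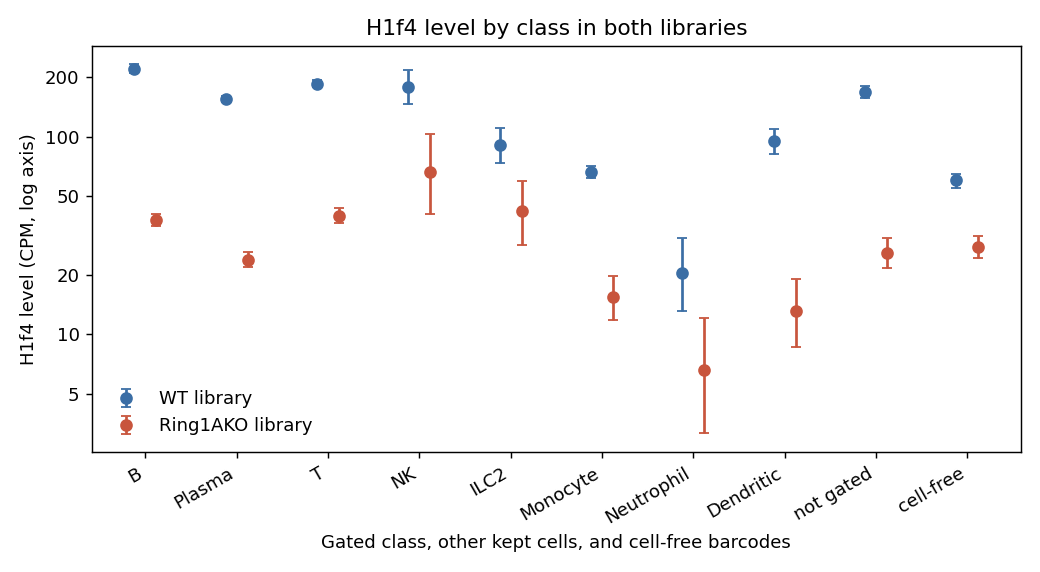
H1f4 level in CPM (log axis) in each gated class, in kept cells outside the gates and in cell-free barcodes with under 100 UMIs. Points are the summed level of the WT (blue) and the Ring1AKO (red) library and bars are 95% Poisson intervals for counting error only; the Ring1AKO point lies below the WT point in all 8 classes, from 221 against 38.0 CPM in B cells to 20.6 against 6.61 CPM in neutrophils.

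On the log2 scale, with 1 UMI added to each sum, the ratio of Ring1AKO to WT was −2.81 in dendritic cells (exact interval −3.49 to −2.27), −2.69 in plasma cells (−2.83 to −2.56), −2.54 in B cells (−2.66 to −2.41), −2.21 in T cells (−2.36 to −2.07) and −2.08 in monocytes (−2.50 to −1.73). It was smaller in neutrophils (−1.56, −2.87 to −0.52), NK cells (−1.37, −2.20 to −0.73) and the ILC2 gate (−1.09, −1.75 to −0.52), whose intervals were wide. The order of classes was another one in cells thinned to 1000 UMIs, with −2.56 in neutrophils and −1.83 in NK cells against −1.62 in dendritic cells and −1.69 in monocytes. Few UMIs were left in the small classes. After thinning H1f4 was in 4 WT and 0 Ring1AKO neutrophils, 14 and 2 NK cells, 4 and 1 dendritic cells and 60 and 7 monocytes. Whether the order depends on depth was not tested. Without the cells that held 2 or more mast markers, the ILC2 value was −0.99 (−1.88 to −0.28). The family was chosen on this direction in H1f4, and the class nearest to its edge was the ILC2 gate, at −1.09. Just outside lay H1f2, lower in 7 of 8 classes with 0.00 in the ILC2 gate. Of all 9307 genes with at least 500 UMIs, 12.2% were lower in all 8 classes, and the median gene over all gated cells had a log2 ratio of −0.11. By its median over the 8 classes (−2.15), H1f4 was 14th lowest of these genes.

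These intervals cover counting error only, and UMIs of 1 cell are not independent of each other. The 3 cells with the most H1f4 UMIs held 12.4% of them in WT B cells, 10.3% in WT plasma cells and 8.15% in WT T cells. In dendritic cells 3 cells held 45.2% of the WT and 44.4% of the Ring1AKO H1f4 UMIs. The dendritic ratio therefore rested on few cells, and those of B, T and plasma cells on 573, 670 and 553 cells with an H1f4 UMI in WT.

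Cells of 1 library are not replicates, and H1f4 was chosen for a lower level in every class. The share of cells with an H1f4 UMI is therefore given as a description. It was lower in Ring1AKO beyond counting error in 5 of 8 classes, a count that was not made for all genes. Among B cells 46.2% of the WT (95% exact binomial interval 43.4 to 49.1) and 15.9% of the Ring1AKO cells (14.8 to 17.1) had at least 1 H1f4 UMI. For T cells the shares were 39.4% and 18.2%, for plasma cells 69.0% and 33.6%, for monocytes 30.2% and 9.71%, and for dendritic cells 35.3% and 13.6%. The intervals of the libraries overlapped for NK cells (45.7% and 30.6%), the ILC2 gate (22.5% and 16.7%) and neutrophils (5.41% and 3.44%). Plasma cells had the highest share in WT, though B, T and NK cells had a higher level. After every cell was thinned to 1000 UMIs, 186 of 1239 WT and 142 of 3766 Ring1AKO B cells had a UMI (the second is 3.77%), as had 11.4% and 2.72% of T cells, 11.9% and 3.05% of plasma cells, and 4.94% and 1.33% of monocytes. No class was expected to lack the gene, and the lowest was the neutrophil gate, with 4 of 222 WT and 0 of 262 Ring1AKO thinned cells. In cell-free barcodes, those with under 100 UMIs, H1f4 stood at 60.0 CPM in WT and 27.6 CPM in Ring1AKO. The WT neutrophil level was below the first value, and the Ring1AKO levels of plasma cells, monocytes, neutrophils and dendritic cells were below the second.

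Within the WT library the order of H1f4 levels was B, T, NK, plasma, dendritic, ILC2, monocyte and neutrophil. T and NK cells, NK and plasma cells, and dendritic and ILC2-gated cells did not differ beyond counting error, whereas the step from B to T cells (log2 0.25, 0.16 to 0.35), from plasma to dendritic cells (0.69, 0.49 to 0.92), from the ILC2 gate to monocytes (0.47, 0.14 to 0.76) and from monocytes to neutrophils (1.63, 1.10 to 2.34) did. In the Ring1AKO library the order was NK, ILC2, T, B, plasma, monocyte, dendritic and neutrophil. There, only the steps from B to plasma cells (0.67, 0.51 to 0.83) and from plasma cells to monocytes (0.61, 0.26 to 1.03) had intervals without 0. B cells, at the top of the WT order, thus stood below NK, ILC2-gated and T cells in Ring1AKO. No step between neighbours from NK down to B cells exceeded counting error. Without cells holding 2 or more mast markers, the Ring1AKO ILC2 gate had 35.4 CPM from 18 UMIs, below B cells at 38.1 CPM.

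H1f5, another replication-dependent variant, was the only other member lower by at least 1.5-fold in all 8 classes, a pattern shown by 0.698% of the 9307 genes. Over all gated cells it had 62.9 CPM in WT and 9.77 CPM in Ring1AKO, a log2 ratio of −2.69 (−2.81 to −2.56). Its levels were 97.4 and 9.07 CPM in B cells, 107 and 17.4 CPM in T cells, and 116 and 8.29 CPM in dendritic cells. Few cells carried it, since 9.48% of WT and 3.48% of Ring1AKO gated cells had a UMI. In the WT ILC2 gate 50 of its 52 UMIs were in 1 cell, and in WT NK cells 17 of 20, so its values in those classes describe single cells. Its dendritic level rested on few cells too, with 68.6% of the WT UMIs (13 cells with any) and 82.4% of the Ring1AKO UMIs (6 cells) in the top 3 cells. Of its UMIs 1 cell held 92 of 254 in WT monocytes and 7 of 9 in WT neutrophils. The top 3 cells held 30.6% of its UMIs in WT B cells (123 cells with any) and 32.0% in WT plasma cells (144 cells). In WT T cells 131 cells carried it and the top 3 held 18.2% of its UMIs.

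H1f1, H1f3 and H1f2 completed the replication-dependent set. H1f1, the scarcest, had 10.0 CPM in WT and 3.16 CPM in Ring1AKO gated cells (log2 −1.66, −1.91 to −1.44), with its lowest class ratio in B cells, where it had 19.6 and 2.34 CPM. There 33 WT and 39 Ring1AKO cells carried it, and the top 3 cells held 40.4% and 19.15% of its UMIs. H1f3 had 30.5 and 13.4 CPM (−1.19, −1.31 to −1.07), with 46.8 and 14.6 CPM in B cells and 43.6 and 19.9 CPM in T cells. It was lower beyond counting error in 5 classes, a count that was not made for all genes. Its ratio in the ILC2 gate was 0.09 (−1.09 to 1.17). H1f2 was the most abundant member of the family over all gated cells and stood apart, with 166 and 141 CPM (−0.24, −0.29 to −0.20). In B cells its levels were 222 and 209 CPM (−0.09), in T cells 146 and 96.8 CPM (−0.59), in plasma cells 210 and 130 CPM (−0.70) and in dendritic cells 146 and 64.4 CPM (−1.18). Across all gated cells its direction depended on the weighting, since the mean of single-cell CPM gave 0.06 and cells thinned to 1000 UMIs gave 0.05.

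**Figure D2:**
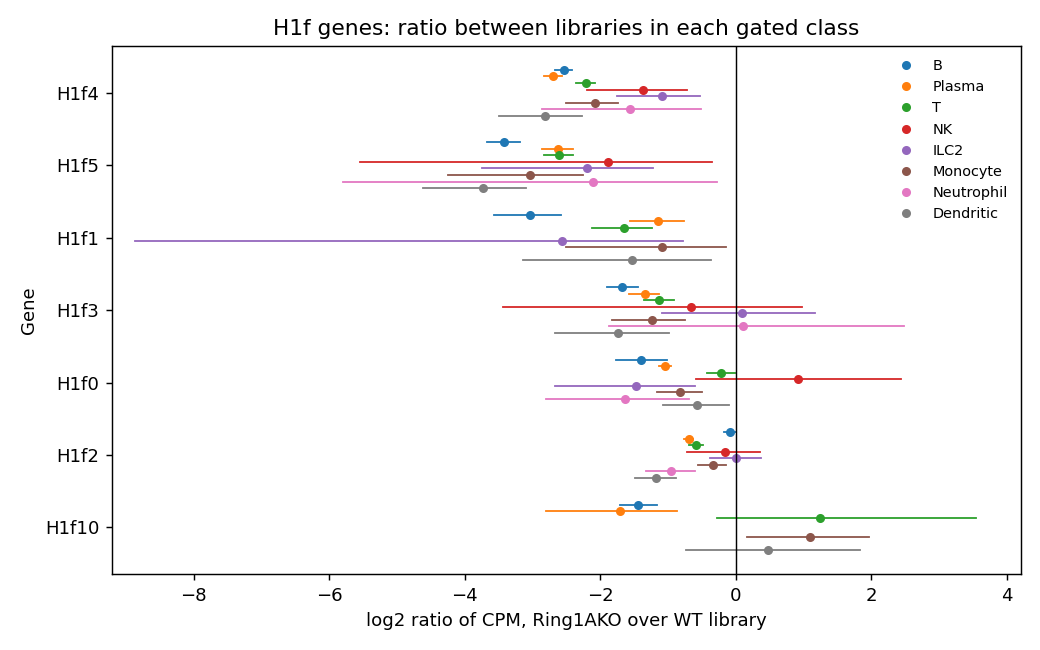
Log2 ratio of CPM, Ring1AKO over WT, for the 7 H1f genes with at least 100 UMIs in each gated class (colours), with exact conditional intervals as lines. Values with no UMI in a library or with both libraries at or under 3 UMIs are not drawn; H1f4 and H1f5 lie to the left of 0 in all 8 classes, and H1f10 lies on both sides.

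The replacement variants did not move together. H1f0 was most abundant in plasma cells, with 127 CPM in WT and 61.5 CPM in Ring1AKO (−1.04, −1.14 to −0.95), and over all gated cells it had 69.6 and 32.7 CPM (−1.09). In T cells the levels were closer, 35.8 and 30.8 CPM (−0.22, −0.42 to −0.02). H1f10 was scarce, with 5.26 and 4.57 CPM over all gated cells (−0.20, −0.44 to 0.03). It was lower in Ring1AKO B cells, at 30.5 and 11.3 CPM (−1.44), and in plasma cells, from 44 and 13 UMIs (−1.71), and higher in monocytes, from 27 and 20 UMIs (1.09, 0.16 to 1.96). Whether these class ratios differ from each other was not tested.

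The germline variants were not detectable in gated cells beyond the floor of 3 UMIs. H1f7 and H1f9 had 0 UMIs in both libraries, H1f6 had 1 UMI in WT and 0 in Ring1AKO, and H1f8 had 2 and 1. With 57051184 and 63957909 gated UMIs, a count of 0 allows up to 0.0526 CPM in WT and 0.0469 CPM in Ring1AKO.

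Of the 7 members with at least 100 UMIs, 5 were lower by at least 1.5-fold over all gated cells, against 14.6% of all 9307 tested genes, and none was higher by that fold. H1f4 had been chosen on this contrast, and the members shared libraries and cells. Summed over the 11 genes, H1 UMIs made up 490 CPM in WT and 235 CPM in Ring1AKO gated cells (log2 −1.06). The sum was lower in each class, from 654 and 291 CPM in B cells to 419 and 266 CPM in NK cells and 201 and 96.5 CPM in neutrophils.

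The make-up of the H1 UMIs differed with it. In WT gated cells H1f2 gave 34.0% and H1f4 29.6% of the H1 UMIs, and in Ring1AKO cells 59.9% and 13.04%. B cells had the largest shift, with H1f2 at 33.9% and 71.9% and H1f4 at 33.7% and 13.1%. In T cells H1f4 was the first member in WT (34.8%, against 27.4% for H1f2), while H1f2 was first in Ring1AKO (46.0%, against 19.0% for H1f4). NK cells had H1f4 at 42.7% and 25.0%. Neutrophils were already dominated by H1f2 in WT, at 71.5% (65.3 to 77.2), and had 76.7% in Ring1AKO (69.0 to 83.3). H1f4 had been chosen for a lower level in every class, so its smaller share is a description. These shares are of captured 3′ UMIs, and a difference in polyadenylation between members would change them as a difference in message would.

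**Figure D3:**
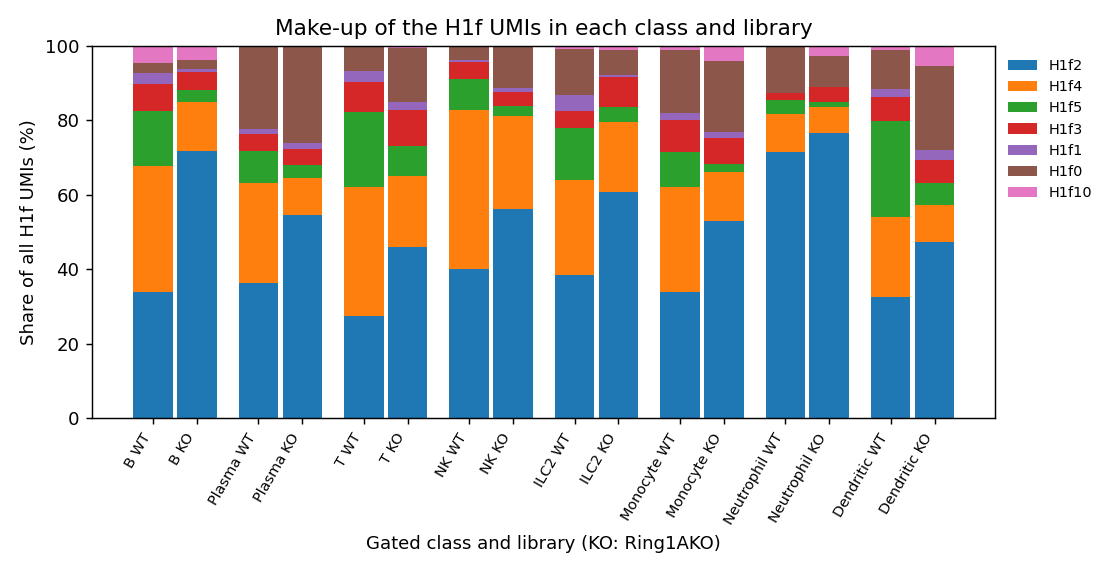
Share (%) of each H1f gene among all H1f UMIs of a gated class, in the WT and the Ring1AKO (KO) library; the 4 germline genes are too rare to see. H1f2 (blue) takes a larger share and H1f4 (orange) a smaller share in Ring1AKO in every class, with H1f4 at 33.7% and 13.1% of H1 UMIs in B cells. Intervals of the libraries overlap for H1f4 in neutrophils and the ILC2 gate, and for H1f2 in neutrophils and NK cells.

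Mki67, a marker of cycling cells, was next set beside the family, because replication-dependent histones follow S phase. At least 1 Mki67 UMI was found in 15.4% of WT and 7.48% of Ring1AKO gated cells. By class the shares were 5.65% and 2.58% in B cells, 30.6% and 15.8% in plasma cells, 12.99% and 8.22% in T cells, and 20.5% and 25.5% in monocytes. The monocyte share was the only one of the 8 that was higher in Ring1AKO, with overlapping intervals (18.3 to 22.9 and 21.8 to 29.5). Thinned to 1000 UMIs, 3.23% of WT and 1.34% of Ring1AKO gated cells were Mki67-positive.

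Within each library H1f4 was higher in Mki67-positive cells, at 245 against 106 CPM in WT (log2 1.21, 1.15 to 1.27) and 45.3 against 27.8 CPM in Ring1AKO (0.71, 0.55 to 0.86). Thinned to 1000 UMIs the contrasts were 1.44 and 1.66, so the library with the larger one changed with thinning. Thinning also changed which cells were Mki67-positive, and in Ring1AKO it left 99 of them and 230 gated cells with an H1f4 UMI. The part of depth in this change was not tested. The contrast was clear in WT T cells (416 against 120 CPM) and B cells (464 against 171 CPM) and absent beyond counting error in WT monocytes (70.0 against 64.9 CPM). Between libraries, the log2 ratio of H1f4 was −2.44 (−2.58 to −2.30) in Mki67-positive cells and −1.93 (−2.02 to −1.85) in Mki67-negative cells. In Mki67-negative cells alone it was −2.20 in B cells, −2.41 in plasma cells, −1.95 in T cells and −2.15 in monocytes. The difference between libraries was therefore present in both states. A Mki67-negative cell is only one without a captured Mki67 UMI, so that state can hold cycling cells. Thinned to 1000 UMIs, positive gated cells fell from 856 to 180 in WT and from 554 to 99 in Ring1AKO.

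H1f5 was concentrated far more in cycling cells, with 193 against 11.8 CPM in WT (4.03, 3.90 to 4.18) and 43.0 against 3.32 CPM in Ring1AKO (3.69, 3.44 to 3.95). Mki67-positive cells held 86.5% of the H1f5 UMIs in WT and 71.5% in Ring1AKO, against 47.6% and 24.1% for H1f4 and 28.1% and 16.3% for all UMIs. H1f1 had log2 contrasts of 2.92 and 2.56, and H1f3 of 1.54 and 1.48. For H1f2 the contrast was 0.04 (−0.02 to 0.10) in WT and −0.22 (−0.31 to −0.14) in Ring1AKO over all gated cells, with opposite signs between classes. In B cells it was −0.63 (−0.87 to −0.41) in WT and −0.57 (−0.78 to −0.37) in Ring1AKO, and in dendritic cells 0.89 (0.54 to 1.26) and 0.65 (0.14 to 1.16). WT T cells had 0.62 (0.47 to 0.77), and plasma cells −0.17 in WT and 0.41 (0.28 to 0.53) in Ring1AKO. H1f10 was tied to cycling B cells, with 149 against 6.24 CPM in WT and 123 against 2.58 CPM in Ring1AKO B cells. H1f0 had 96.7 against 59.0 CPM in WT and 78.2 against 23.8 CPM in Ring1AKO over all gated cells. Plasma cells held 2805 of its 3973 UMIs in WT and 1381 of 2089 in Ring1AKO. They were Mki67-positive more often than B cells (30.6% and 15.8%, against 5.65% and 2.58%). The part of class make-up in this contrast was not tested. Of all genes, 7.08% in WT and 17.2% in Ring1AKO were higher by at least 1.5-fold in Mki67-positive cells. Of the 7 members, every one but H1f2 passed that fold in both libraries, with all classes pooled.

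**Figure D4:**
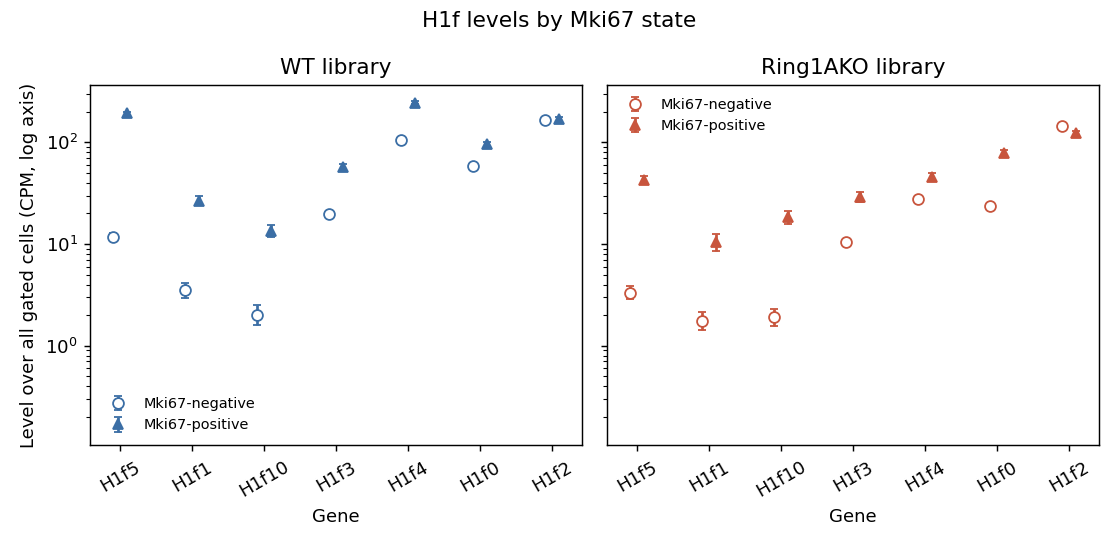
Level (CPM, log axis) of the 7 counted H1f genes in Mki67-negative (open circles) and Mki67-positive cells (triangles) over all gated cells, with 95% Poisson intervals, in the WT (left) and the Ring1AKO library (right). H1f5 has the widest gap, 193 against 11.8 CPM in WT, and H1f2, pooled over classes, almost none, 170 against 165 CPM.

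Other genes of the chromatin and cell-cycle lists were read over the same cells, to set the family beside its neighbours. Of 58 core histone genes, 43 had at least 100 UMIs, and 30 of these were lower and 13 higher in Ring1AKO, with a median log2 ratio of −0.29. The median of all 12340 genes at that minimum was −0.13. By 1.5-fold, 17 were lower and 0 higher, where 17.5% of all genes were lower. The lowest were H2ac22 (9.85 and 1.16 CPM, −3.07), H3c3 (25.8 and 4.10 CPM, −2.65) and H3c2 (3.31 and 0.532 CPM, −2.61). The highest were H4c14 (3.26 and 4.13 CPM, 0.34), H2ac24 (108 and 131 CPM, 0.28) and H2bc7 (0.26). Pooled over classes, core histones therefore ranged as widely as the H1 genes, with members on both sides of 0. By class, 36 of the 43 were lower and 7 higher in B cells (median −0.60, all genes −0.20). In dendritic cells 40 were lower and 3 higher (−1.22, all genes −0.11), and in NK cells 24 and 19 (−0.08, all genes 0.12). By 1.5-fold, 22 were lower and 1 higher in B cells (21.1% and 5.70% of all genes). In dendritic cells 35 and 1 were (23.3% and 11.8%), and in NK cells 12 and 17 (18.1% and 32.1%). The medians over the 8 classes were −0.20 in H2ac24, 0.01 in H4c14 and 0.03 in H2bc7.

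Replacement core histones, which are made outside S phase, had a median of 0.02 over 7 counted genes, from −0.34 in Macroh2a1 to 0.67 in H2ax. The genes that process histone messages had a median of −0.10 over 10 genes. Among them Slbp, the protein that binds the stem-loop, had 77.4 and 91.1 CPM (0.24), and Npat, the factor that drives histone transcription in S phase, had 14.99 and 7.82 CPM (−0.94). Eri1, a nuclease that trims histone messages, had −0.59 and Casp8ap2, which acts in their 3′ end formation, −0.52. Lsm11, of the U7 particle that cleaves histone messages, was higher (4.70 and 6.07 CPM, 0.37). These values are over all gated cells. By class, Slbp was lower in 4 of 8 (class median −0.004) and Lsm11 in 3 of 8 (0.30). In B cells all 10 counted processing genes were lower (median −0.33, against −0.20 over all genes). By 1.5-fold, 4 were lower and 0 higher there, against 21.1% and 5.70% of all genes.

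The 2 cell-cycle lists differed by class. Of 20 S-phase genes 14 were higher in Ring1AKO over all gated cells (median 0.09). Of 20 G2/M genes 19 were lower (median −0.70), with Mki67 at 79.9 and 32.7 CPM (−1.29) and Cenpe at −1.58. The median of all 12340 genes was −0.13. By 1.5-fold, 0 S-phase and 11 G2/M genes were lower and 1 and 0 higher, against 17.5% of all genes lower and 3.71% higher. B cells were 1239 of 5572 WT and 3766 of 7409 Ring1AKO gated cells, and the part of this make-up in the pooled medians was not tested. In B cells 19 S-phase and 20 G2/M genes were lower, in plasma cells 16 and 18, and in dendritic cells all 20 of each. By 1.5-fold, 11 and 20 were lower in B cells (21.1% of all genes) and 2 and 11 in plasma cells (30.8%). In dendritic cells 15 and 16 were (23.3%). By that fold 1 S-phase gene was higher in plasma cells. The S-phase and G2/M medians were −0.60 and −1.89 in B cells (all genes −0.20) and −1.03 and −1.13 in dendritic cells (all genes −0.11). In plasma cells they were −0.22 and −0.76 with all genes at −0.36, so the S-phase list was not below the median gene there. H1f4 was thus lower together with both lists in B and dendritic cells, and with the G2/M list in plasma cells. In the other small classes the G2/M median was −0.66 in NK cells (all genes 0.12), −0.47 in the ILC2 gate (−0.02) and −0.37 in neutrophils (−0.30). The S-phase medians there were −0.08, −0.02 and −0.37. In T cells 14 of 20 S-phase genes were higher (median 0.28) and 12 of 20 G2/M genes lower (median −0.22, all genes −0.05), with H1f4 at −2.21. By 1.5-fold, 4 S-phase genes were higher and 0 lower there, and 7 G2/M genes lower and 2 higher. Of all genes 12.9% were lower and 8.04% higher. In monocytes 13 S-phase genes were higher (median 0.22, all genes −0.07), 2 of them by 1.5-fold (14.1% of all genes), and 4 were lower by that fold (14.7%). The G2/M sum was 133 CPM in both libraries, with H1f4 at −2.08. The part of cycling in the H1f4 ratio was not tested beyond these values and the split by Mki67 state.

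**Figure D5:**
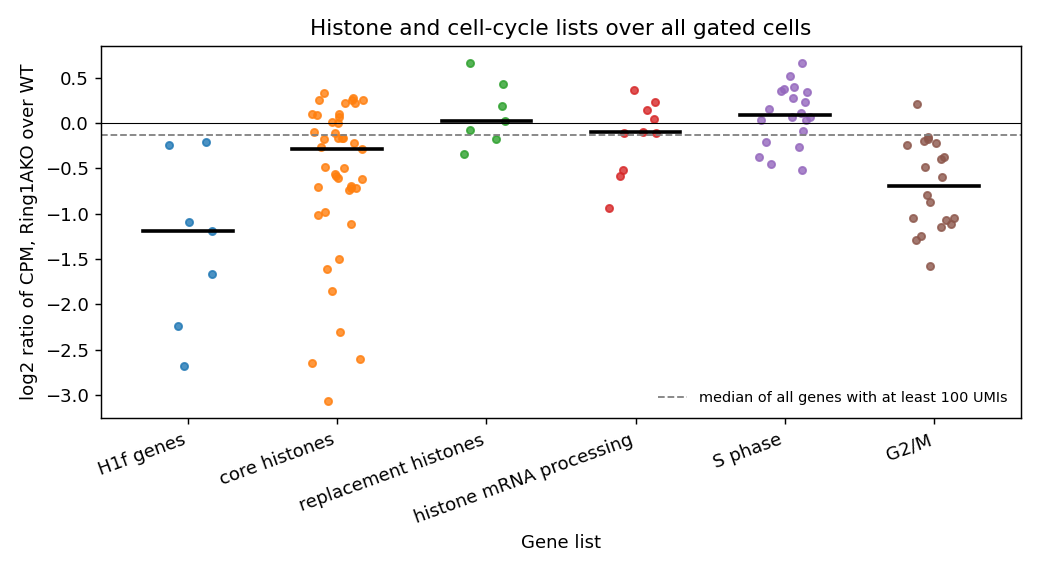
Log2 ratio of CPM, Ring1AKO over WT, over all gated cells for the genes with at least 100 UMIs in 6 lists; points are genes (spread sideways at random), black bars are list medians and the dashed line is the median of all genes (−0.13). H1f genes have a median of −1.19, core histones −0.29, S-phase genes 0.09 and G2/M genes −0.70. Values are pooled over classes, whose shares differ between the libraries.

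Position on the chromosome gave another view. Between chr13:23553262-23764406 (GRCm38) lie H1f1 to H1f4, the testis gene H1f6, 18 counted core histone genes and Hfe, a gene of iron uptake control. The 4 H1 genes with at least 100 UMIs were lower over all gated cells, as were 13 of the 18 core histones (median −0.58, from −2.65 in H3c3 to 0.26 in H2bc7), and Hfe was at −0.78. The median of all genes at that minimum was itself below 0, at −0.13, and H1f4 had been chosen on this direction. Neighbours did not share a value, since H2bc4 had 0.07 and H1f2 −0.24 inside the same stretch as H1f4. H1f5, with the lowest H1 ratio, lies outside it at chr13:21779883-21780625, and H1f0 and H1f10 lie on chromosomes 15 and 6.

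The genes with the pattern most like H1f4 were ranked by Pearson correlation of log2(CPM + 1) over the 16 values of 8 classes in 2 libraries. The 16 values share depth and library, so r is a description. Trip11, a golgin of the Golgi apparatus, came first (r = 0.93), followed by Fam98a, Ascc3 (a helicase), Man1a2 and Golga3 (Golgi proteins), Pgrmc2, Srp54a (signal recognition particle), the core histone H4c4, Atrip (the partner of the checkpoint kinase ATR) and Tmem254a (r = 0.89). In WT the log2 contrast of Mki67-positive over Mki67-negative cells was 1.34 in H4c4 and 0.76 in Tmem254a, against 1.21 in H1f4, and from −0.14 to 0.47 in the other 8. Among the family, H1f5 (0.89) and H1f3 (0.87) were nearest, H1f1 and H1f2 had 0.73 and 0.71, H1f0 had 0.33 and H1f10 had −0.003.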

How the data were processed

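Raw UMI counts per gene and barcode were deposited by the authors as 2 unfiltered matrices, 1 a library (10x Genomics 3′ kit). The submitters' processing notes name Cell Ranger 6.0.2, Seurat and mm39, the matrix header names Cell Ranger 4, and the study's methods name mm10. The files carry no coordinates, so printed positions are of GRCm38 (GENCODE vM21, which held 32099 of the 32228 gene IDs, and RefSeq promoters). Cells were kept at 1000 UMIs, 500 genes and under 5% mitochondrial UMIs and gated by detected markers. There were no clusters, so doublets were not called: cells tied between classes (217 WT, 259 Ring1AKO) or holding under 3 markers (216, 250) were left out, and 536 and 634 gated cells led by 1 marker.

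UMIs were summed per class and library and scaled to CPM, with exact Poisson intervals. Ratios carried 1 added UMI and an exact conditional interval. All intervals and floors cover counting error only, at 95%. The members, gene lists and markers were chosen with earlier results of these data known. The rule for named genes took all H1f genes, the 10 genes most like H1f4, the 10 lowest by class median among genes 1.5-fold lower in every class, the 3 lowest and 3 highest core histones, and the histone and cell-cycle lists, of which examples are printed. The ratio code was tested on simulated counts. Alternatives to the filter, gate, denominator, depth, free RNA, pseudocount and Mki67 split were computed. Intervals came from scipy 1.17.1 and figures from matplotlib 3.10.9, under Python 3.11.15.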

Additional observations from a re-analysis of the deposited data

Results flagged for a closer look

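H1f10 was flagged because its ratio pointed in opposite directions between classes, each beyond counting error. It was −1.44 in B cells, −1.71 in plasma cells and 1.09 in monocytes, and the difference between the classes was not tested. The plasma and monocyte ratios rested on few cells, since the top 3 cells held 54.5% of the WT and 69.2% of the Ring1AKO UMIs in plasma cells (17 and 7 cells with any) and 51.9% and 60.0% in monocytes (13 and 11 cells). In WT monocytes 17 of its 27 UMIs were in Mki67-positive cells, and in Ring1AKO monocytes 1 of 20.

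Signal in cell-free barcodes (under 100 UMIs), which enter no comparison between classes, was above the 3-count floor for the following members. H1f4 had 60.0 CPM in WT and 27.6 in Ring1AKO, H1f5 had 21.1 and 8.29, and H1f2 had 164 and 143. The testis variants H1f7 and H1f9 had 6.25 and 14.0 CPM in WT and 8.29 and 17.6 CPM in Ring1AKO cell-free barcodes, from 61 and 137 UMIs in WT and 73 and 155 in Ring1AKO. In kept cells, with far more UMIs in total, both genes had 0. What these counts come from was not tested.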

How the results depend on the processing

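H1f4 had been chosen for its direction in these same libraries, so its values here describe the processing and are no support for that direction. It stayed lower in 8 of 8 classes under all 15 alternatives run. Of 120 class values 105 lay within the interval of the reported value and 0 changed sign (range −3.04 to −0.67). The 15 that moved outside it were, in B cells, −2.27 (mean of single-cell CPM), −2.19 (thinned to 1000 UMIs), −2.20 (Mki67-negative cells alone), −2.38 (same Mki67-positive share in both libraries) and −2.20 (without the 10% deepest cells, chosen after seeing the data); in plasma cells −2.40 (no immunoglobulin UMIs), −2.06 (thinned), −2.41 (Mki67-negative) and −2.49 (same share); in T cells −1.95 (Mki67-negative) and −1.94 (without the deepest cells); in monocytes −1.68 (lead of 2 markers) and −1.69 (thinned); and in dendritic cells −1.62 (thinned) and −1.97 (Mki67-negative). The Mki67 contrast of H1f4 was 1.44 in WT and 1.66 in Ring1AKO when thinned, 1.72 and 1.19 with at least 2 Mki67 UMIs, and 1.52 and 0.998 with Top2a in place of Mki67, so which library had the larger contrast changed with thinning.

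H1f2 was reversed by single-cell CPM (0.0624) and thinning (0.0510). With single-cell CPM H1f0 was −1.35, H1f3 −1.05 and H1f10 −0.47. Thinned, H1f0 was −1.50, H1f1 −0.996, H1f5 −2.24 and the core histone median −0.41. With the mean of the 8 class levels, also chosen after seeing the data, H1f0 was −0.78, H1f2 −0.44, H1f5 −2.94, H1f10 −0.51 and the core histone median −0.64. The core histone median was taken as moved past 0.1. The cause of these shifts was not tested. The exclusion of mast-marker cells, likewise added later, moved no class value outside its interval. No paired analysis was possible because there was a single library per genotype, which also means that none could be left out.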

Other observations

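Of the 9307 genes with at least 500 UMIs, 65, among them H1f4, H1f5 and the core histone H2ac8, were lower by at least 1.5-fold in every class of the Ring1AKO library. The minimum was over all gated cells of both libraries and no floor was applied by class. A call in the small gates can therefore rest on few UMIs, as for H1f5 in neutrophils (9 WT and 2 Ring1AKO UMIs). Mid1 and Npat both had −0.79 in neutrophils, not checked against the floor. The 10 with the lowest class medians were Mid1, a microtubule-associated ubiquitin ligase (14.5 and 1.92 CPM over all gated cells, median log2 −2.79), H1f5 (−2.61), the large interferon-inducible GTPases Gvin2 (−2.30) and Gvin1 (−2.28), H2ac8 (−2.22), H1f4 (−2.15), the peptide transporter Slc15a2 (−1.96), the insulin-degrading enzyme Ide (−1.61), Vps13c, a lipid transfer protein (−1.60), and Ifi213, of the interferon-activated p200 family (−1.58). H2ac8 lies in the chromosome 13 histone stretch with H1f4 and had 65.2 and 17.98 CPM. The mitotic motors Kif11 and Cenpe and the histone transcription factor Npat were among the 65, singled out after their values were seen.

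The 65 genes had a median annotated span of 83715 bases, against 23207 bases over the 9301 tested genes with a span. H1f4 and H1f5 span 1930 and 743 bases. Span was looked at after the list was made, and its relation to the ratio was not tested.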
